A study of Arabidopsis thaliana with 9 samples.

Results

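The genes described here encode antenna proteins, photosystem subunits, ATP synthase subunits and carbon fixation enzymes of the photosynthetic machinery of the leaf. The symbols searched also cover electron carriers, of which none was found. They were chosen by symbol alone (names starting with LHCA, LHCB, RBCS, the later letters of PSA and PSB, PETC, PETE, ATPC, ATPD, PPL or PQL, and single names such as RCA and PRK), so the rule used no measured value. Of 22746 probe sets tested, 15 carried such a symbol as their only gene name, each gene with 1 probe set. The reference annotation placed 11 of them on the nuclear chromosomes: LHCB4.1, LHCB4.2, LHCB4.3, PSAE-1, PSAN, PSBW, PSBY, ATPC1, ATPC2, PRK and RCA. The other 4, psaI, psaJ, psbT and psbZ, lie on the chloroplast genome, so they go against the name nuclear-encoded and are given apart. Only 13513 probe sets carried a single gene name in the annotation used, and no light-harvesting gene of photosystem I, small subunit gene of rubisco, plastocyanin gene or carbonic anhydrase gene was among them under the symbols used. The same held for PETC, ATPD, GAPA and GAPB. Of the LHCB genes only LHCB4.1, LHCB4.2 and LHCB4.3 met the rule, so the other antenna genes of photosystem II were not read here. Of the nuclear photosystem subunits only PSAE-1, PSAN, PSBW and PSBY did.

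The photosynthetic machinery of plants is encoded partly in the nucleus and partly in the chloroplast. Antenna proteins and many small photosystem subunits are encoded in the nucleus, made in the cytosol and imported, whereas most core subunits are encoded and made in the chloroplast. Nuclear photosynthesis genes are among the most strongly transcribed genes of a green leaf and respond to light and to signals from the chloroplast. Biotin is the bound cofactor of carboxylases, among them the acetyl-CoA carboxylase that begins fatty acid synthesis inside the chloroplast.

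Levels were measured in rosette leaves of 5-week-old Arabidopsis thaliana of ecotype Col-0 on Affymetrix ATH1 arrays, where several short probes make up the probe set of a transcript. There were 3 groups of 3 arrays: the bio4-1 mutant watered with 200 µM d-biotin, bio4-1 watered with plain water, and wild type watered with plain water. The mutant carries T-DNA in the 5' UTR of the biotin synthesis gene BIO4; it is a single insertion allele, and no wild type was watered with biotin. Each array held RNA pooled from 5 plants out of trays of 28, so an array averages over plants, and p-values measure the spread between these pools. In pooled leaf RNA, fewer cells of a type and less RNA per cell cannot be told apart. BIO4 had no probe set of its own in the annotation used and was not analysed here.

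The arrays numbered 1 stood apart from those numbered 2 and 3. Correlations across probe sets were 0.95 to 0.972 in the 18 pairs of 1 such array with an array 2 or 3. They were 0.987 to 0.997 in the 15 pairs among arrays 2 and 3. Deviations from the group mean correlated at 0.83 between wild type array 1 and biotin-watered array 1. Those of bio4-1 array 1 correlated at 0.22 with wild type array 1 and 0.35 with biotin-watered array 1. The arrays numbered 1 were thus not alike in all 3 groups. The actin controls read higher at the 3' end than at the 5' end by 3.67 to 4.13 log2 units on the arrays numbered 1, against 2.27 to 2.76 on arrays 2 and 3. For GAPDH this gap was 1.55 to 2.61, against 0.58 to 0.98, and for ubiquitin 1.52 to 1.73, against 1.48 to 1.72. The labels name no batch. The tests between groups were therefore run on all 9 arrays and on arrays 2 and 3 alone. The root marker genes PYK10 and EXPA7, the 2 measured of 6 listed, read 2.93 to 3.26 and 3.68 to 3.90 log2 units, below the array medians of 5.95 to 6.07. SAG101, a gene of senescing leaves, read higher in bio4-1 than in wild type by 0.86 log2 units (adjusted p = 0.498 by limma) on 9 arrays and by 0.60 (adjusted p = 0.0558) on arrays 2 and 3. In biotin-watered plants it was higher than in wild type by 0.51 on 9 arrays, which did not pass, and by 0.64 on arrays 2 and 3 (adjusted p = 0.0394 by limma). In that last comparison 5.14% of all probe sets passed. SAG29, the other measured gene of the 5 on the senescence list, differed between bio4-1 and wild type by −0.07 on 9 arrays and 0.05 on arrays 2 and 3, and with biotin against bio4-1 by 0.32 on 9 arrays, where SAG101 differed by −0.35. The part of these genes in the values below was not tested. FMA was the 1 measured of 4 listed epidermis and guard cell markers. It differed between bio4-1 and wild type by −0.03 on 9 arrays and 0.28 on arrays 2 and 3 (adjusted p = 0.318 by limma). With biotin against bio4-1 it differed by −0.14 on 9 arrays and −0.35 on arrays 2 and 3 (adjusted p = 0.233 by limma). None of these passed. The listed markers of companion cells, flowers and seeds had no probe set under a single name.

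None of the 11 nuclear members passed the test between any of the 3 groups, and the group means of each lay at most 0.24 log2 units apart. Nuclear photosynthesis genes outside these members were not covered by this count. LHCB4.1, PSAN, PSAE-1, PSBW, PSBY, ATPC1, LHCB4.2, PRK and RCA had mean readings at or above the 99.6th percentile of all probe sets, and LHCB4.3 was at the 98.2nd. ATPC2 lay between 5.16 and 5.77 on the log2 scale, below the median of its array on every array. A probe set's reading also depends on how well its probes bind, so these places on the array's scale do not order the genes by transcript level. From the lowest to the highest of 9 arrays, the nuclear members spanned 0.10 log2 units (RCA) to 0.76 (PSAN) with a median of 0.57, against a median of 0.58 over the 178 probe sets with a mean of at least 12 and 0.65 over all probe sets.

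**Figure D1:**
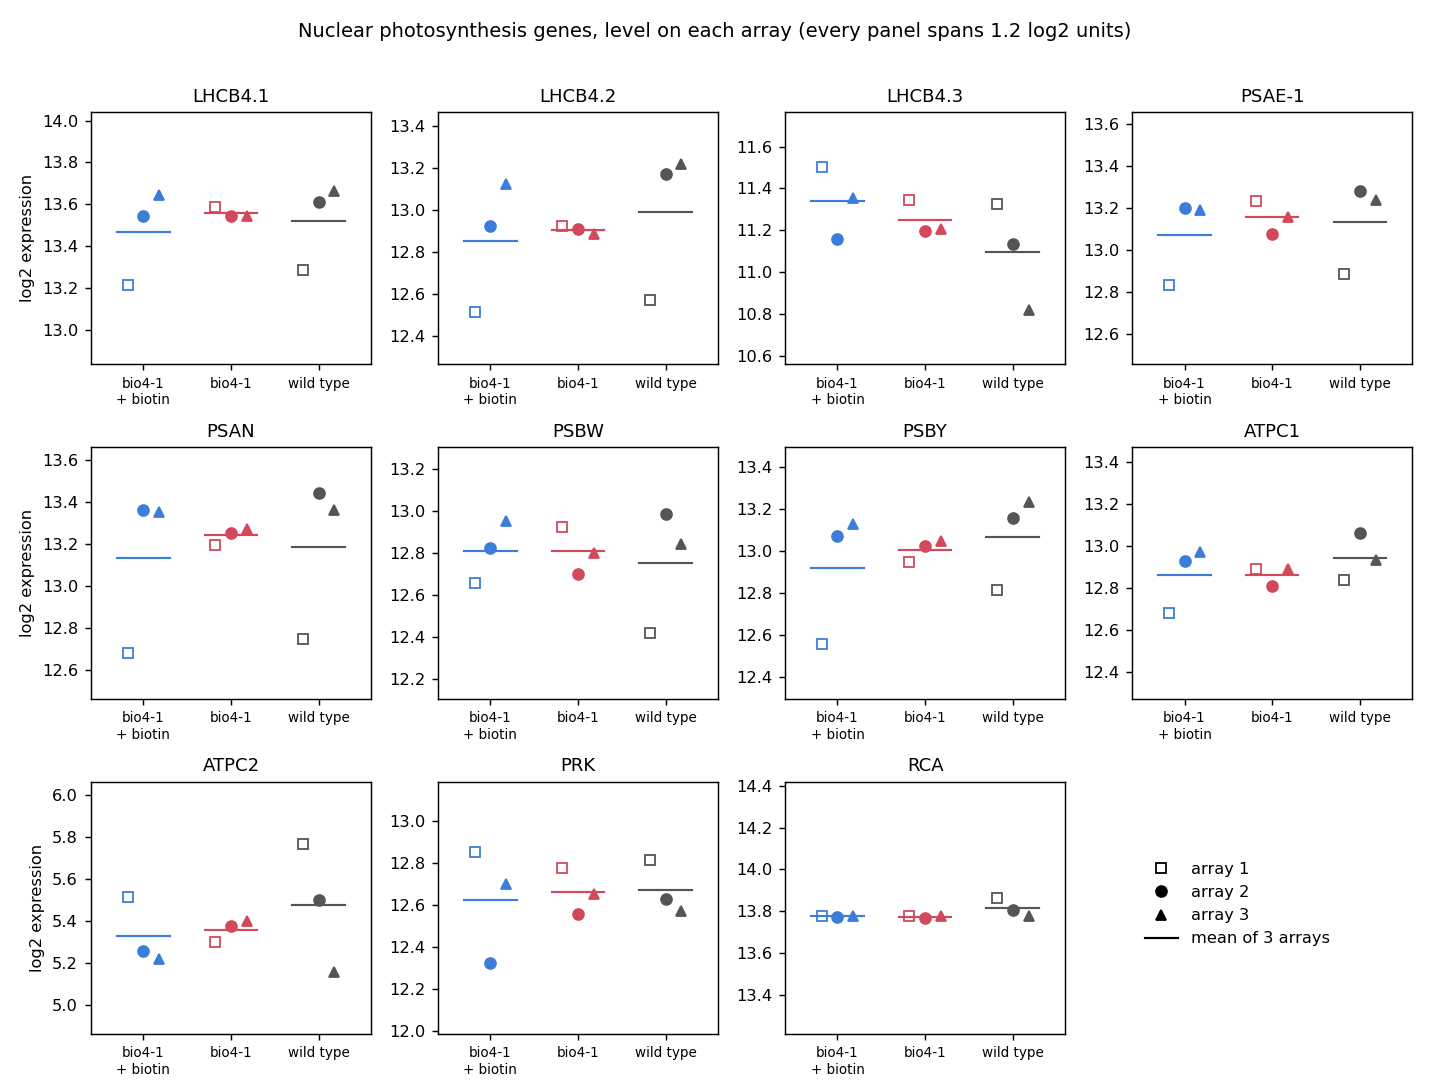
Log2 expression of the 11 nuclear photosynthesis genes on each of 9 arrays, by group (biotin-watered bio4-1, bio4-1, wild type), with open squares for arrays numbered 1, filled circles and triangles for arrays 2 and 3, and a line at the mean of the 3 arrays; every panel spans 1.2 log2 units. In LHCB4.1, LHCB4.2, PSAE-1, PSAN and PSBY the lowest readings are those of array 1 in the biotin-watered and wild type groups, with bio4-1 array 1 among the others.

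The LHCB4 genes encode CP29, a minor antenna protein that passes excitation energy from the outer antenna to the core of photosystem II. LHCB4.1, at locus AT5G01530, read 13.21, 13.54 and 13.65 in biotin-watered bio4-1, 13.59, 13.54 and 13.54 in bio4-1, and 13.29, 13.61 and 13.66 in wild type (log2, arrays 1, 2 and 3). The 3 groups overlapped, and the lowest readings were those of array 1 of the biotin-watered and wild type groups. The value was exactly 13.54479642 on biotin-watered array 2 and on bio4-1 arrays 2 and 3, and the origin of this tie was not tested. The difference between bio4-1 and wild type was 0.04 ± 0.14 log2 units (SE, n = 3 each; adjusted p = 0.992 by limma over all probe sets). With biotin the gene differed from water-grown bio4-1 by −0.09 ± 0.14 (adjusted p = 1.00 by limma). On arrays 2 and 3 these differences were −0.09 ± 0.09 and 0.05 ± 0.09, with adjusted p of 0.685 and 0.853 by limma.

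LHCB4.2, at AT3G08940, encodes a close relative of the same protein, and its full values are given because of its reading on arrays 2 and 3. It read 12.51, 12.93 and 13.12 in biotin-watered bio4-1, 12.92, 12.91 and 12.89 in bio4-1, and 12.57, 13.18 and 13.22 in wild type. Its 3 bio4-1 arrays spread with an SD of 0.02, whereas array 1 was the lowest of its group in both other groups. Over 9 arrays the difference between bio4-1 and wild type was −0.08 ± 0.21 (adjusted p = 0.983 by limma). With arrays 2 and 3 alone it was −0.30 ± 0.10, the largest of any nuclear member there, with an unadjusted p of 0.0231 and an adjusted p of 0.185 by limma, so it did not pass.

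LHCB4.3, at AT2G40100, encodes another form of CP29. It read 11.50, 11.16 and 11.35 in biotin-watered bio4-1, 11.34, 11.20 and 11.21 in bio4-1, and 11.33, 11.14 and 10.82 in wild type. The groups overlapped on 9 arrays, with biotin-watered array 1 the highest and wild type array 3 the lowest. The difference from wild type was 0.24 ± 0.15 in biotin-watered bio4-1 and 0.16 ± 0.15 in bio4-1, neither past the test (adjusted p = 1.00 and 0.927 by limma). On arrays 2 and 3 these were 0.28 and 0.22, with adjusted p of 0.384 and 0.440 by limma.

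PSAN, at AT5G64040, encodes a lumenal subunit of photosystem I that takes part in docking of the electron carrier plastocyanin, and PSAE-1, at AT4G28750, a stromal subunit near the ferredoxin site. PSAN read 12.68, 13.36 and 13.35 in biotin-watered bio4-1, 13.20, 13.25 and 13.27 in bio4-1, and 12.75, 13.44 and 13.36 in wild type. It had the widest span of the nuclear members, set by array 1 of the biotin-watered and wild type groups, while its 3 bio4-1 arrays spread with an SD of 0.04. The difference between bio4-1 and wild type was 0.06 ± 0.24 on 9 arrays (adjusted p = 0.993 by limma) and −0.14 ± 0.09 on arrays 2 and 3 (adjusted p = 0.498 by limma). PSAE-1 averaged 13.07 ± 0.21 in biotin-watered bio4-1, 13.16 ± 0.08 in bio4-1 and 13.13 ± 0.22 in wild type (SD, n = 3 each).

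PSBW, at AT2G30570, and PSBY, at AT1G67740, encode small membrane subunits of photosystem II. PSBY read 12.56, 13.07 and 13.13 in biotin-watered bio4-1, 12.95, 13.02 and 13.05 in bio4-1, and 12.81, 13.16 and 13.23 in wild type. Array 1 was the lowest in all 3 groups, and the groups overlapped. The difference from wild type was −0.15 ± 0.17 in biotin-watered bio4-1 and −0.06 ± 0.17 in bio4-1, with adjusted p of 1.00 and 0.984 by limma. Without the arrays numbered 1 they were −0.10 and −0.16, with adjusted p of 0.738 and 0.434 by limma. PSBW averaged 12.81 ± 0.15 in biotin-watered bio4-1, 12.81 ± 0.11 in bio4-1 and 12.75 ± 0.30 in wild type.

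ATPC1, at AT4G04640, and ATPC2, at AT1G15700, encode forms of the gamma subunit of the chloroplast ATP synthase, the rotating shaft of the enzyme. ATPC2 read 5.51, 5.26 and 5.22 in biotin-watered bio4-1, 5.30, 5.37 and 5.40 in bio4-1, and 5.77, 5.50 and 5.16 in wild type. Those groups overlapped, with wild type both highest and lowest. The difference between bio4-1 and wild type was −0.12 ± 0.16 on 9 arrays (adjusted p = 0.957 by limma) and 0.06 ± 0.13 on arrays 2 and 3 (adjusted p = 0.861 by limma). ATPC1, the main form in leaves, averaged 12.86 ± 0.16 in biotin-watered bio4-1, 12.86 ± 0.05 in bio4-1 and 12.94 ± 0.11 in wild type.

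Of the carbon fixation enzymes, RCA, at AT2G39730, encodes rubisco activase, which clears inhibitory sugar phosphates from rubisco, and PRK, at AT1G32060, encodes phosphoribulokinase, which makes the sugar that accepts carbon dioxide. RCA read 13.78, 13.77 and 13.78 in biotin-watered bio4-1, 13.78, 13.77 and 13.78 in bio4-1, and 13.86, 13.80 and 13.78 in wild type. Its value was exactly 13.7786598 on biotin-watered arrays 1 and 3, bio4-1 array 3 and wild type array 3. The origin of these ties was not tested. RCA was the steadiest member in these readings. Its difference between bio4-1 and wild type was −0.04 ± 0.07 on 9 arrays (adjusted p = 0.967 by limma) and −0.02 ± 0.09 on arrays 2 and 3 (adjusted p = 0.947 by limma). The gene ranked 5th to 10th of all probe sets on every array, 0.24 to 0.79 log2 units below the array's highest reading, and how far that place at the top of the scale limits what a change could show was not tested. PRK averaged 12.62 ± 0.27 in biotin-watered bio4-1, 12.66 ± 0.11 in bio4-1 and 12.67 ± 0.13 in wild type.

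The comparison of bio4-1 with wild type asks, per the series title, about biotin deficiency; the biotin level of the leaves was not among the values used here, and the groups compared are 1 insertion allele and wild type. For the nuclear members, 0 of the 11 nuclear members passed an adjusted p of 0.05 in bio4-1 minus wild type on 9 arrays, where 0.0308% of all probe sets passed, and 0 had an unadjusted p under 0.05, against 7.06% of all probe sets. A limma fit with an intensity trend also called 0. Their differences ran from −0.12 (ATPC2) to 0.16 (LHCB4.3), 5 positive and 6 negative, with a median of −0.01 against −0.03 over all probe sets. The 95% intervals of all 11 lay between −0.56 and 0.60 log2 units, that is between 0.677-fold and 1.52-fold. A difference inside that span may have gone undetected, and none of the 11 intervals reached a 2-fold change.

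The comparison with biotin-watered plants asks what supplied biotin changes in the mutant. Here 0 of 11 passed against water-grown bio4-1, where 0% of all probe sets passed. None had an unadjusted p under 0.05, against 4.54% of all probe sets, and the intensity-trend fit called 0. Differences ran from −0.11 (PSAN) to 0.09 (LHCB4.3), 3 positive and 8 negative, with a median of −0.04 against 0.02 over all probe sets, and intervals lay between 0.636-fold and 1.35-fold. Against wild type, the biotin-watered plants also had 0 of 11 past the test, 0 with an unadjusted p under 0.05 and 0 by the intensity-trend fit, where 0.0044% and 2.48% of all probe sets passed on those rules. These differences ran from −0.15 (PSBY) to 0.24 (LHCB4.3), 2 positive and 9 negative, with intervals between −0.62 and 0.59 log2 units. No nuclear member had groups free of overlap in any of the 3 comparisons on 9 arrays, against 13.1%, 9.03% and 5.92% of all probe sets. Here and below a tied reading counts as overlap. For RCA, no bio4-1 or biotin-watered reading lay above any wild type reading. Each of these groups met wild type only at the tied value 13.7786598, on 9 arrays and on arrays 2 and 3. On arrays 2 and 3, LHCB4.1 with biotin and in water-grown bio4-1 also met only at a tied value. The 3 comparisons share arrays, so their values are not independent of each other.

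**Figure D2:**
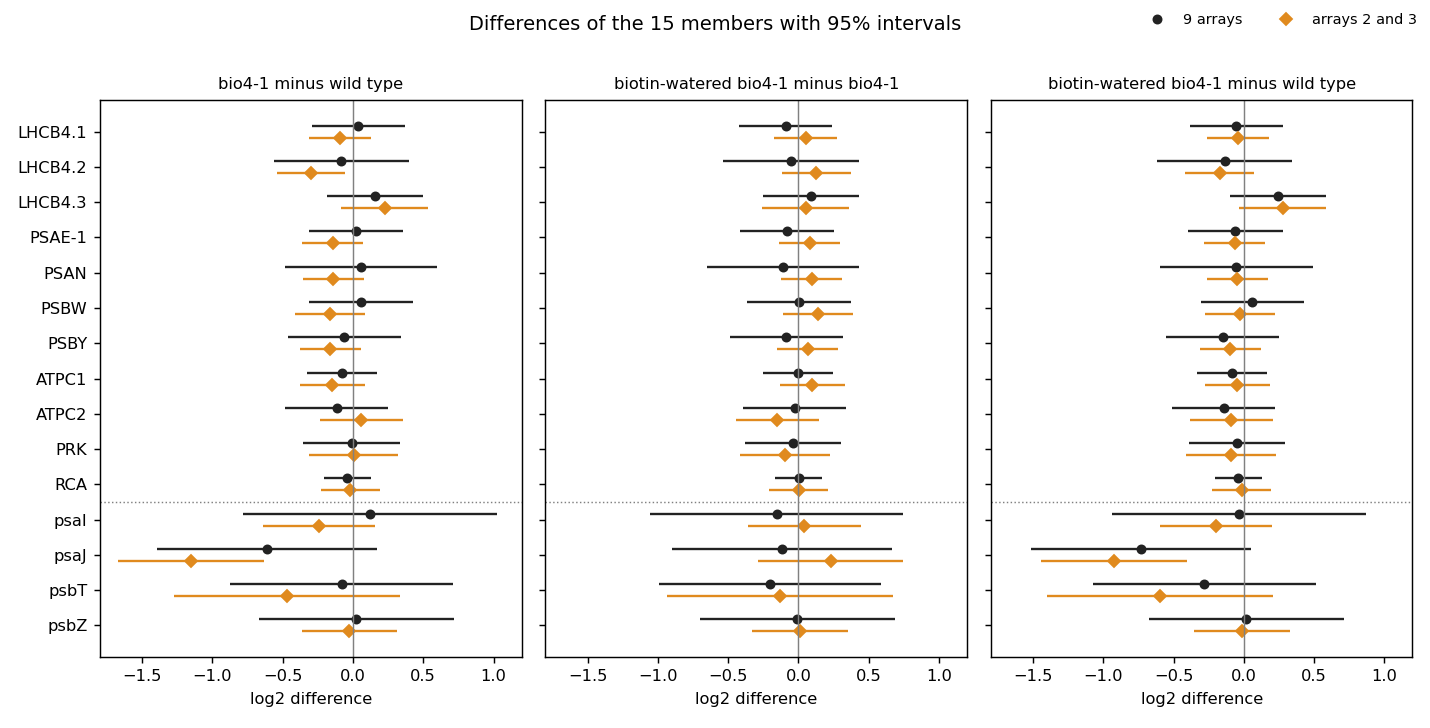
Log2 difference of each of the 15 members with its 95% interval, for bio4-1 minus wild type, biotin-watered bio4-1 minus bio4-1, and biotin-watered bio4-1 minus wild type, on all 9 arrays (black circles) and on arrays 2 and 3 (orange diamonds); the dotted line parts the 11 nuclear members from the 4 on the chloroplast genome. All nuclear intervals on 9 arrays lie between −0.65 and 0.60, and psaJ is the member farthest below 0 in both comparisons with wild type.

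Without the arrays numbered 1, the standard errors of the nuclear differences were 0.09 to 0.14, against 0.07 to 0.24 on 9 arrays, and many more probe sets passed. In bio4-1 minus wild type 3.97% of all probe sets passed on arrays 2 and 3, and 0 of the 11 nuclear members, with LHCB4.2 the 1 member at an unadjusted p under 0.05, against 18.2% of all probe sets. There 8 of the 11 were lower in bio4-1 and 3 higher, with a median of −0.14 against −0.01 over all probe sets. Scaling changed that median to −0.08 with quantile normalization and −0.19 with median centring, against −0.01 and −0.06 over all probe sets. Readings of the 2 groups did not overlap in 8 of 11 members, against 47% of all probe sets.

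For biotin-watered against water-grown bio4-1, 3.35% of all probe sets passed on arrays 2 and 3 and again 0 of 11, with 0 at an unadjusted p under 0.05 (17% of all probe sets) and a lowest adjusted p of 0.588 by limma. Readings were higher with biotin in 9 members and lower in 2, with a median of 0.07 against 0.01 over all probe sets, and groups did not overlap in 7 of 11, against 44.3% of all probe sets. This comparison and the one with wild type use the same bio4-1 arrays. Biotin-watered plants against wild type had 0 of 11 past the test where 5.14% of all probe sets passed, again 0 at an unadjusted p under 0.05 (15.8% of all probe sets), with 1 member higher (LHCB4.3) and 10 lower and a median of −0.05. With quantile normalization 5 were higher and 6 lower. Groups did not overlap in 5 of 11 members, against 40.1% of all probe sets.

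Readings of the nuclear genes also differed between arrays of the same group. Array 1 gave the lowest of 3 readings in 7 of 11 members in biotin-watered bio4-1, in 3 of 11 in bio4-1 and in 7 of 11 in wild type, against 39.3%, 43.8% and 38.0% of all probe sets. Its reading minus the mean of arrays 2 and 3 had a median over the 11 members of −0.27 in biotin-watered bio4-1, 0.04 in bio4-1 and −0.35 in wild type. Over all probe sets these medians were 0.01, −0.02 and 0.01. For PSAN the gap was −0.68 in biotin-watered bio4-1, −0.07 in bio4-1 and −0.66 in wild type. LHCB4.2 had gaps of −0.51, 0.02 and −0.63 in the same order. Not all members shared this, since LHCB4.3, PRK and RCA had gaps of 0.14 to 0.35, 0.17 to 0.34 and 0.00 to 0.07 over the 3 groups. ATPC2 had gaps of 0.28 in biotin-watered bio4-1, −0.09 in bio4-1 and 0.44 in wild type. Its signs in the biotin-watered and wild type groups were opposite to those of PSAN.

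In a limma fit with a block for arrays numbered 1, PSAN fell by 0.47 ± 0.12 log2 units on them (adjusted p = 0.0287) and PSBY fell by 0.34 ± 0.09 (adjusted p = 0.0365). That made 2 of the 11 nuclear members called lower and 0 called higher, where 12% of all probe sets were called lower and 11.9% higher. The block takes the shift as equal in the 3 groups, which the readings of bio4-1 array 1 go against. The actin gap between 3' and 5' ends was high on all 3 arrays numbered 1, bio4-1 included, and its part in the nuclear readings was not tested.

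The sign of the mutant's difference was not the same on the single arrays numbered 1 and on the others. Comparing 1 array with 1 array, with no test, 8 of 11 nuclear members read higher in bio4-1 than in wild type and 3 lower, with a median of 0.14. PSBW was 0.50 higher, PSAN 0.45 and LHCB4.2 0.35, against −0.17, −0.14 and −0.30 on arrays 2 and 3. In all, 9 of the 11 had opposite signs in the 2 sets of arrays, against 47.1% of all probe sets.

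**Figure D3:**
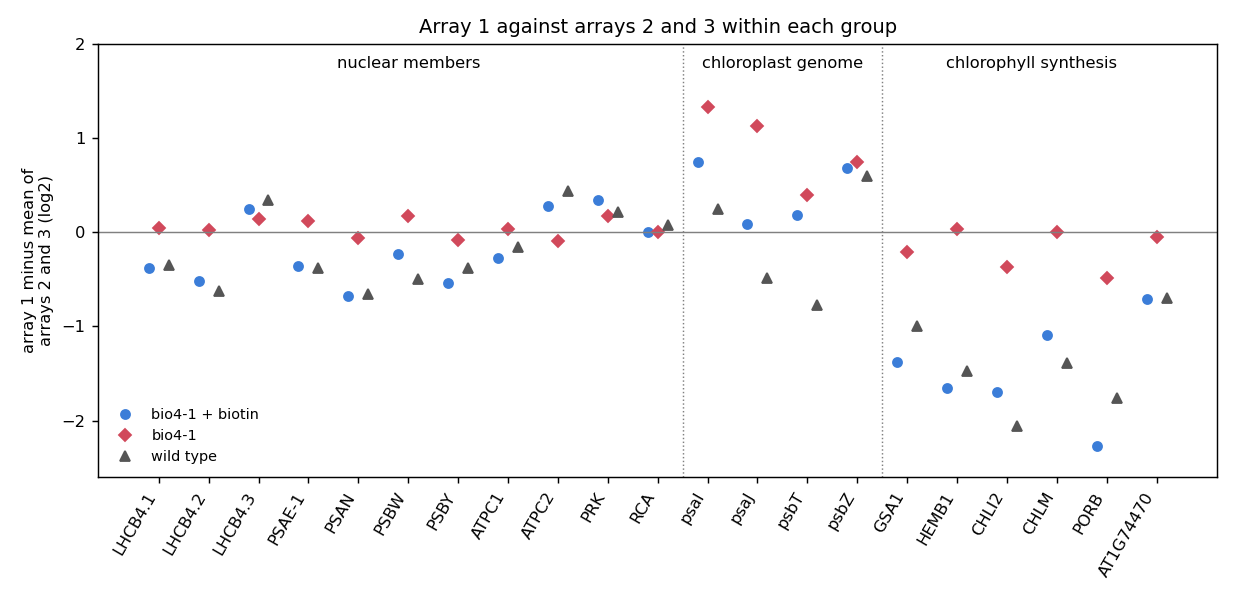
Reading of array 1 minus the mean of arrays 2 and 3 (log2 units) for the 11 nuclear members, the 4 members on the chloroplast genome and 6 chlorophyll synthesis genes, with blue circles for biotin-watered bio4-1, red diamonds for bio4-1 and grey triangles for wild type. In PSAN the biotin-watered and wild type points lie at −0.68 and −0.66 with bio4-1 at −0.07, and in the 6 chlorophyll synthesis genes the biotin-watered and wild type points also lie below those of bio4-1.

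The measured genes of chlorophyll synthesis, which make the pigment that the antenna proteins bind, had the same pattern on a larger scale. Of 18 written for this list, 6 had a probe set of their own: GSA1, HEMB1, CHLI2, CHLM, PORB and AT1G74470. Array 1 was the lowest in 6 of 6 in biotin-watered bio4-1, 3 of 6 in bio4-1 and 6 of 6 in wild type, against 39.3%, 43.8% and 38.0% of all probe sets. The median gaps were −1.52, −0.13 and −1.43 in the same order. PORB, which encodes a light-dependent protochlorophyllide reductase, had gaps of −2.27, −0.49 and −1.76, and CHLI2, a subunit of magnesium chelatase, −1.70, −0.37 and −2.06. In the block fit all 6 had negative differences, and 5 were called lower and 0 higher. CHLM, at −0.82, just missed the threshold (adjusted p = 0.0502 by limma). Of all probe sets 12% were called lower and 11.9% higher.

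Between groups, 0 of the 6 chlorophyll genes passed in bio4-1 minus wild type on 9 arrays (median 0.13) or on arrays 2 and 3 (median −0.25). Of all probe sets 0.0308% and 3.97% passed there, so 0 of 6 is near these shares. The lowest adjusted p by limma was 0.161, for PORB on arrays 2 and 3. PORB there was −0.37 ± 0.12 in bio4-1 against wild type (unadjusted p = 0.0176 by limma) and 0.42 ± 0.12 with biotin against water-grown bio4-1 (adjusted p = 0.126 by limma). On the single arrays numbered 1 all 6 read higher in bio4-1 than in wild type, with a median of 1.02, and on arrays 2 and 3 all 6 read lower.

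Other lists around these genes were thinly covered by single-name probe sets. Of 13 Calvin-Benson cycle genes only SBPASE was measured, at 0.03 in bio4-1 minus wild type on 9 arrays and 0.02 on arrays 2 and 3. Of 10 electron transfer genes only PGRL1B was measured, at −0.51 on 9 arrays (adjusted p = 0.840 by limma), −0.12 on arrays 2 and 3 (adjusted p = 0.732 by limma) and −1.29 on the single arrays numbered 1. The 3 measured of 12 photorespiration genes had a median of 0.01 on 9 arrays and −0.01 on arrays 2 and 3. AT1G11860 of this list, which encodes a glycine cleavage subunit, was at 0.21 on 9 arrays and −0.02 on arrays 2 and 3. None of 7 regulators of photosynthesis genes was measured, and 0 of these list members passed in any of the 3 comparisons on 9 arrays or on arrays 2 and 3. Of all probe sets at most 0.0308% passed on 9 arrays and at most 5.14% on arrays 2 and 3.

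The 4 members on the chloroplast genome varied more than the nuclear ones. Both psaI and psaJ encode small membrane subunits of photosystem I, and psbT and psbZ small subunits of photosystem II. Over 9 arrays they spanned 0.92 to 1.58 log2 units, against 0.10 to 0.76 in the nuclear members. Their median span was 1.51, against 0.65 over all probe sets. Their mean readings, 6.53 (psbT) to 11.66 (psbZ), were lower than those of most nuclear members. Their spans were not compared with those of probe sets of like readings. On the 9 arrays 0 of 4 passed in any comparison, with 0 at an unadjusted p under 0.05. The shares over all probe sets were 0.0308% in bio4-1 minus wild type, 0% in biotin-watered bio4-1 minus bio4-1 and 0.0044% in biotin-watered bio4-1 minus wild type, and 7.06%, 4.54% and 2.48% unadjusted, so a count of 0 of 4 is near the background. In the block fit psaI rose by 0.78 (adjusted p = 0.0288 by limma) and psbZ by 0.67 (adjusted p = 0.00473 by limma) on the arrays numbered 1, the direction opposite to PSAN and PSBY.

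psaJ read 9.78, 9.56 and 9.84 in biotin-watered bio4-1, 10.60, 9.11 and 9.83 in bio4-1, and 10.13, 10.62 and 10.62 in wild type. All 3 biotin-watered arrays lay below all 3 wild type arrays, as did bio4-1 arrays 2 and 3, whereas bio4-1 array 1 lay inside the wild type range. The difference from wild type was −0.73 ± 0.34 in biotin-watered bio4-1 and −0.61 ± 0.34 in bio4-1, neither past the test on 9 arrays (adjusted p = 1.00 and 0.804 by limma). Groups failed to overlap in 5.92% of all probe sets in the first of these comparisons.

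On arrays 2 and 3, psaJ was the 1 member of 15 to pass: it fell by 1.15 ± 0.22 log2 units in bio4-1 against wild type (adjusted p = 0.0351 by limma), where 1.6% of all probe sets were called lower. In biotin-watered plants it was −0.92 ± 0.22 against wild type (adjusted p = 0.0628 by limma) and 0.23 ± 0.22 against water-grown bio4-1 (adjusted p = 0.678 by limma). This call depended on which arrays entered. With 1 of the 6 arrays left out, it passed in 1 case of 6, without bio4-1 array 3 at −1.51, and the differences ran from −0.79 to −1.51 with adjusted p of 0.0450 to 0.261 by limma. On the arrays numbered 1 psaJ read 0.46 higher in bio4-1 than in wild type.

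**Figure D4:**
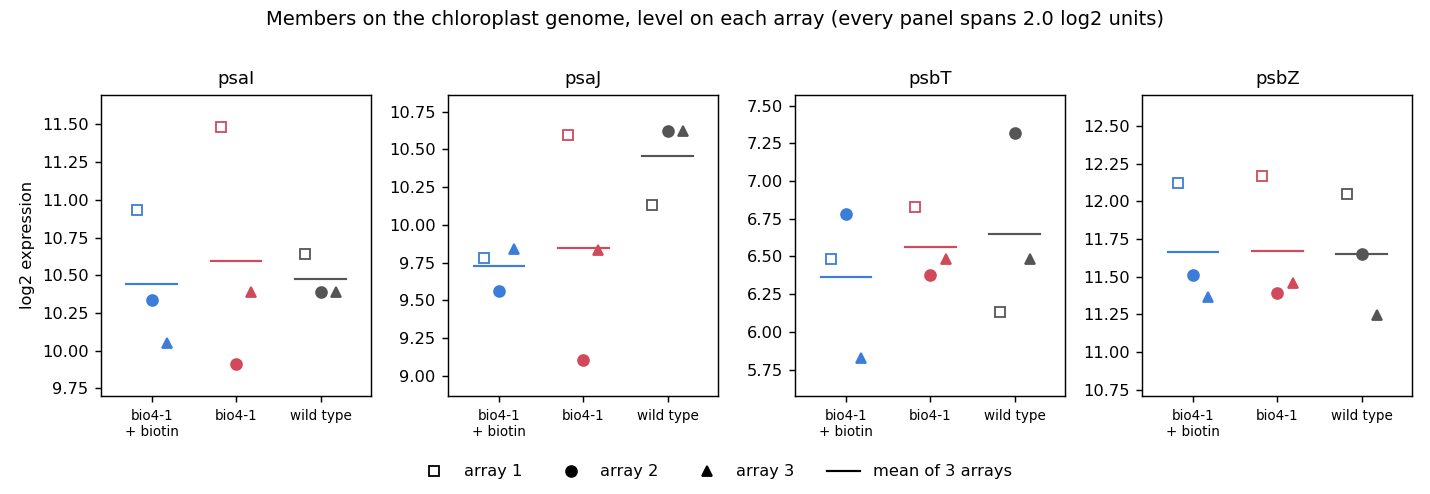
Log2 expression of psaI, psaJ, psbT and psbZ on each of 9 arrays by group, with open squares for arrays numbered 1, filled circles and triangles for arrays 2 and 3, and a line at the mean of 3 arrays; every panel spans 2.0 log2 units. In psaJ the biotin-watered arrays at 9.56 to 9.84 lie below the wild type arrays at 10.13 to 10.62, with bio4-1 between 9.11 and 10.60.

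The groups of psaI, psbT and psbZ overlapped in all 3 comparisons on 9 arrays. psaI averaged 10.44 ± 0.45 in biotin-watered bio4-1, 10.60 ± 0.81 in bio4-1 and 10.48 ± 0.14 in wild type, with bio4-1 array 1 the highest at 11.49. On arrays 2 and 3 its biotin-watered readings, 10.34 and 10.05, both lay below the wild type readings of 10.39 and 10.39, a difference of −0.20 ± 0.17 that did not pass (adjusted p = 0.697 by limma), where groups did not overlap in 40.1% of all probe sets. The value of psaI was exactly 10.39189833 on wild type arrays 2 and 3 and on bio4-1 array 3. The origin of this tie was not tested. psbT averaged 6.36 ± 0.49, 6.57 ± 0.24 and 6.65 ± 0.61 in the same order. psbZ averaged 11.67 ± 0.40 in biotin-watered bio4-1, 11.67 ± 0.43 in bio4-1 and 11.65 ± 0.40 in wild type, and array 1 was the highest in each group. The 22 other photosynthesis genes of the chloroplast genome had 0 called in any comparison on 9 arrays, where at most 0.0308% of all probe sets passed. On arrays 2 and 3 again 0 were called, where 3.97%, 3.35% and 5.14% of all probe sets passed, so 0 of 22 is near these shares. Their medians in bio4-1 minus wild type were −0.01 on 9 arrays and −0.09 on arrays 2 and 3, against −0.03 and −0.01 over all probe sets.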

How the data were processed

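The authors deposited log2 values made with RMA, per the submitters' processing notes. The sources used here give neither its version nor its settings. All 9 columns were matched to samples by their labels. The 64 control probe sets were left out and 22746 entered the test by limma (lmFit and eBayes, version 3.58.1 under R 4.3.3), with 1 fit for the 3 groups and no block. P-values were adjusted by Benjamini-Hochberg over these probe sets, separately for each comparison, and called under 0.05. The number of arrays limits the precision; no detection calls were used.

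Members were the probe sets whose single gene symbol met the symbol rule; genomes and loci came from the TAIR10.1 gene table. The symbol rule uses no measured value, but the rule and the lists were written with earlier results of these data known. The text gives full values for LHCB4.1, PSAN, the member of each class with the largest difference between bio4-1 and wild type, and members past the threshold on arrays 2 and 3. LHCB4.2 was added after its values were seen. Alternatives were a replicate block, arrays 2 and 3, the arrays numbered 1 as a block, other scalings, a filter on dim probe sets, an intensity trend, array weights, 2-group fits and leaving out arrays. Other scalings and left-out arrays within arrays 2 and 3 were chosen after seeing the data. The fit was tested on simulated data with independent normal errors. These held no shift of the arrays numbered 1, so the fit was not tested under such a shift. Promoter and protein sequences were not used here. Tables were made with pandas 2.3.3 in Python 3.11.15 and plots with matplotlib 3.10.9.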

Additional observations from a re-analysis of the deposited data

How the results depend on the processing

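The count of the 15 members called stayed at 0 in 69 of 78 combinations of a comparison with an alternative and was 1 in 9, psaJ each time. In bio4-1 minus wild type those were arrays 2 and 3 (1), array weights (1), arrays 2 and 3 with quantile normalization (1) or median centring (1), and arrays 2 and 3 without bio4-1 replicate 3 (1). In biotin-watered bio4-1 minus wild type they were array weights (1), and arrays 2 and 3 with median centring (1) or without bio4-1 replicate 2 or 3 (1 each), with psaJ at −1.01 (adjusted p = 0.0111 by limma) under array weights. Leaving out any 1 of the 9 arrays kept the count at 0 in all 3 comparisons. The median of the 11 nuclear members ran from −0.19 to 0.04 in bio4-1 minus wild type, −0.08 to 0.14 in biotin-watered bio4-1 minus bio4-1 and −0.14 to 0.04 in biotin-watered bio4-1 minus wild type. With 1 array left out these ranges were −0.10 to 0.04, −0.08 to 0.04 and −0.14 to 0.04. Of the single differences 22 moved by more than the spread between replicates and 9, all psaJ, passed the threshold; the cause was not tested.

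The labels do not say that a replicate number marks a shared batch, and the deviations of same-numbered arrays from their group means correlated at −0.03 to 0.83 over 9 pairs, against −0.79 to 0.65 over 18 pairs with different numbers. An array correlated best with its own number in 12 of 18 comparisons with another group, each a choice among 3 arrays. The main fit took no pairing from the numbers because the labels name none, not because of these correlations. With a replicate block, 0 members passed and the calls over all probe sets were 7, 0 and 1 in the 3 comparisons, as without it. Calls over all probe sets in bio4-1 minus wild type were 7 on 9 arrays, against 904 on arrays 2 and 3, 55 with the arrays numbered 1 as a block, 979 with array weights, 2 with only the 2 groups and 1 with the dim filter. In biotin-watered bio4-1 minus bio4-1 they were 0, against 761, 13 and 797 in the first 3 of these, and in biotin-watered bio4-1 minus wild type 1, against 1169 on arrays 2 and 3 and 2981 with array weights. With 3 pools a group, differences of the nuclear members inside their intervals may have gone undetected. The p-values are adjusted over all probe sets, so somewhat larger differences could also fail to pass.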
